A study of Homo sapiens with 12 samples.

Results

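The miRNAs hsa-miR-103a-3p, hsa-miR-107 and hsa-miR-103a-2-5p were followed through TGF-β-induced EMT in A549 cells, a lung adenocarcinoma line of human origin that grows as epithelium. They are 3 of the 2588 mature miRNAs in the deposited count table and were taken by name. Where a name stood on several entries of the table, the entry with the highest total count was used. EMT was induced with the cytokine TGF-β, and small RNA was sequenced from A549 cells before treatment (0 h) and after 24 h and 96 h of it. Each of the 3 time points has 2 libraries, and the 2 sequencing runs of a library are summed in its counts. The run titles end in a date-like number that the labels do not explain. One run of each library carries the same number throughout. The number of the other run is shared by both 24 h libraries, is another in both 96 h libraries, and differs between the 0 h libraries. Between 24 h and 96 h it cannot be told apart from time. All 6 libraries come from the same unmodified line, and no culture kept without TGF-β for 24 or 96 h was part of the data, so time in culture and TGF-β cannot be told apart. The comparisons of 24 h and 96 h with 0 h share the same 0 h libraries.

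miR-103a-3p and miR-107 are closely related guide strands made from introns of the pantothenate kinase genes, whose products catalyse the first step of coenzyme A synthesis. They belong to the wider group of miR-15 and its relatives, whose members carry the bases AGCAGC near the 5′ end. Both are known to repress DICER1, the enzyme that cuts miRNA precursors into mature duplexes, and this has been linked to lower levels of the epithelial miR-200 family and to EMT in other epithelial cancers. miR-103a-2-5p is the other strand of one miR-103a precursor, the strand that is usually discarded.

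The mature sequences show how little separates the pair. They are given as RefSeq lists them with GRCh38.p14, 5′ to 3′, with the seed (bases 2 to 8, which pair with targets) in capitals.
miR-103a-3p: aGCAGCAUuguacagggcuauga
miR-107: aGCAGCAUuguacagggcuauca
miR-103a-2-5p: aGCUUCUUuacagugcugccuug
miR-15b-5p: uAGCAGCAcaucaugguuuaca
miR-16-5p: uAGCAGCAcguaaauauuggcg
miR-424-5p: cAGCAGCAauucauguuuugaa
miR-103a-3p and miR-107 are both 23 nt long and differed at 1 position, G22C, counted from 1 at the 5′ end of miR-103a-3p. Among human miRNAs in RefSeq, these were the only 2 with the seed GCAGCAU. The first 6 bases of that seed stood 1 base further in, at bases 3 to 8, in 7 other human miRNAs, of which miR-15b-5p, miR-16-5p and miR-424-5p are shown because their levels are described below. A read of the pair that ends before base 22 has the same sequence in both miRNAs, and how such reads were divided is not given in the sources used here. For that reason their summed count was tested as well.

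The 3 genes lie on 3 chromosomes (GRCh37, the build named in the submitters' notes as hg19), each in an intron of its host gene and on the host's strand. MIR103A1 is at chr5:167987897-167987982 on the minus strand in PANK3, and MIR103A2 is at chr20:3898141-3898218 on the plus strand in PANK2. MIR107 is at chr10:91352500-91352586 on the minus strand in PANK1. The mature miR-103a-3p was found in both MIR103A precursors, at chr5:167987909-167987931 and chr20:3898188-3898210, so its level is that of 2 genes together. The count table held 2 entries for it, the lower of which was 28 to 91 counts below the higher in each library, or 0.295% to 0.636%, so nearly all its reads were listed under both. miR-103a-2-5p, at chr20:3898151-3898173, comes from MIR103A2. Its counterpart from MIR103A1, miR-103a-1-5p, differs from it by A1G and is not listed in the table.

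The known link to Dicer can be seen in the reference sequence. The 3′ UTR of DICER1 on GRCh37 (chromosome 14, minus strand, 4270 nt in the Ensembl canonical transcript) held 5 matches to AUGCUGC, the reverse complement of the shared seed, searched on the transcribed strand only. They are printed as RNA with 15 bases before the match and 1 after it, with the match in capitals.
chr14:95555795-95555801: uaucacaccuaaaauAUGCUGCa
chr14:95555194-95555200: uugaugcuucguggaAUGCUGCa
chr14:95553990-95553996: uccgcaguccuaacuAUGCUGCg
chr14:95552719-95552725: aauauuuaccaucacAUGCUGCa
chr14:95552667-95552673: auucauacaguaaucAUGCUGCa
In 4 of the 5 the match was followed by an A. Of 1889 3′ UTRs at least as long, 27.16% held at least 1 match within the same length and 0.05294% (DICER1 itself) held at least 5. These matches describe the reference, and neither binding nor DICER1 mRNA was measured in these libraries.

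Total counts on mature miRNAs ranged from 2335185 to 5971197 per library, so that 1 read was worth 0.167 to 0.428 CPM (counts scaled to a common library total), and 491 miRNAs had enough counts to be tested. Counts were scaled between libraries with TMM, whose factors ran from 0.738 to 1.36 and fell with time. The labels do not say whether the 2 libraries of a time point came from separate cultures, so p-values measure the spread between these libraries, which may be technical. In bulk samples, fewer cells with a miRNA and less of it per cell cannot be told apart. Of the epithelial marker miRNAs, 7 of 7 had counts, summing to 147 to 171 CPM of the total count at 0 h, 173 to 194 at 24 h and 188 to 195 at 96 h. They did not move alike. In mean TMM-normalized CPM from 0 h to 96 h, miR-200b-3p went from 44.0 to 134 and miR-200a-3p from 40.9 to 71.8. miR-429 went from 12.4 to 14.4 and miR-203a-3p from 6.65 to 11.1. miR-200c-3p went from 18.0 to 17.5, miR-141-3p from 3.59 to 1.65 and miR-205-5p from 0.299 to 0. Fibroblast or muscle markers (4 of 5 with counts, miR-214-3p at 0) summed to 1.57 to 4.98 CPM over all libraries. Blood markers (3 of 5 with counts, miR-223-3p and miR-150-5p at 0) summed to 5.29 to 5.57 CPM at 0 h, 0.933 to 1.96 at 24 h and 0.644 to 0.670 at 96 h, and their part in the results was not tested.

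miR-103a-3p was an abundant miRNA of A549 cells and held its place through EMT. It ranked between 29 and 31 in every library by count, while miR-107 ranked between 68 and 88 and miR-103a-2-5p between 510 and 627. Untreated cells gave 7222 and 9491 counts of miR-103a-3p, those treated for 24 h gave 7868 and 9433, and those treated for 96 h gave 14334 and 12250. TMM-normalized, its level was 2647 and 2833 CPM (0 h), 2929 and 2887 CPM (24 h), and 3254 and 3324 CPM (96 h). On this scale the libraries of a time point lay close together and those of different time points did not overlap, with 96 h highest and 0 h lowest. The same lack of overlap held for 57.8% of tested miRNAs between 24 h and 0 h, 71.7% between 96 h and 0 h, and 61.9% between 96 h and 24 h. Scaled by total counts, the 96 h libraries of miR-103a-3p were lowest. The means were 2740 ± 132, 2908 ± 30.1 and 3289 ± 49.6 CPM (SD, n = 2 each).

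miR-107 was lower, and its libraries spread more widely. Its counts were 1143 and 1994 in untreated cells, 1689 and 1673 after 24 h, and 1759 and 2109 after 96 h. On the TMM scale this was 419 and 595 CPM (0 h), 629 and 512 CPM (24 h), and 399 and 572 CPM (96 h). Every pair of time points overlapped, and each time point had one library between 399 and 512 CPM and one between 572 and 629 CPM. The means were 507 ± 125, 570 ± 82.6 and 486 ± 122 CPM (SD, n = 2 each), so that 24 h stood highest and 96 h lowest with no neighbours separated beyond their spread.

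**Figure D1:**
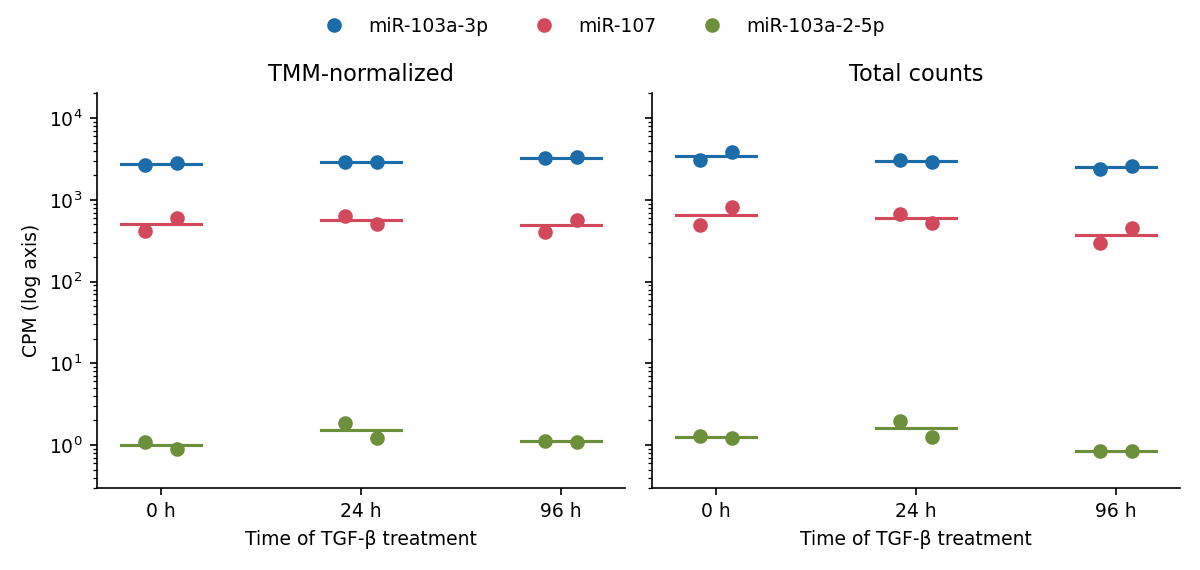
Level of miR-103a-3p, miR-107 and miR-103a-2-5p in each library (points; lines are means of 2 libraries) against hours of TGF-β, in CPM on a log axis, scaled with TMM (left) and by the total count (right). miR-103a-3p goes from 2740 to 3289 CPM between 0 and 96 h on the left, whereas on the right its 96 h libraries lie lowest.

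After 24 h of TGF-β, neither guide strand passed the test. The log2-fold change of miR-103a-3p against 0 h was 0.09 (SE 0.13, 95% interval −0.20 to 0.37, adjusted p = 0.673 by the quasi-likelihood test of edgeR, Benjamini-Hochberg adjustment over the 491 tested miRNAs). For miR-107 it was 0.17 (SE 0.22, interval −0.32 to 0.65, adjusted p = 0.629, same edgeR test). Of all tested miRNAs, 7.13% passed this test at an adjusted p below 0.05, and 3.46% also differed by more than 1 on the log2 scale, so 0 of 2 stood against a low background. The intervals allow at most a 1.29-fold rise for miR-103a-3p and a 1.57-fold rise for miR-107. The levels of miR-103a-3p at 24 h and 0 h did not overlap, which was also the case for 57.8% of all tested miRNAs.

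After 96 h, when 44.0% of tested miRNAs had passed, and 25.9% with a log2-fold change beyond 1, the pair again had 0 of 2. miR-103a-3p was 1.20-fold its 0 h level, a log2-fold change of 0.26 (SE 0.13, interval −0.02 to 0.55, adjusted p = 0.115 and unadjusted p = 0.0675 in edgeR's quasi-likelihood test). miR-107 was 0.957-fold its 0 h level, a log2-fold change of −0.06 (SE 0.22, interval −0.55 to 0.42, adjusted p = 0.835, edgeR). Its direction turned with single libraries, since leaving out 0 h replicate 2 gave a log2-fold change of 0.22, leaving out 96 h replicate 1 gave 0.20, and leaving out 96 h replicate 2 gave −0.31. The 96 h levels of miR-103a-3p lay above those of 0 h without overlap, as 71.7% of tested miRNAs had no overlap between these time points. The intervals reach up to a 1.46-fold level for miR-103a-3p and from 0.684-fold to 1.34-fold for miR-107.

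Between 24 h and 96 h the log2-fold change was 0.18 for miR-103a-3p (SE 0.13, interval −0.11 to 0.46, adjusted p = 0.378, edgeR) and −0.23 for miR-107 (SE 0.22, interval −0.72 to 0.25, adjusted p = 0.492, edgeR). Here 12.6% of tested miRNAs passed, 5.91% with a log2-fold change beyond 1, and 61.9% had no overlap, miR-103a-3p among them. With TMM neither member reached an unadjusted p under 0.05 in edgeR in any of the 3 comparisons. The Wald test of DESeq2 put 0 of 2 past an adjusted p of 0.05 in each, and 1 of 2 under an unadjusted 0.05 at 96 h against 0 h. The share of all tested miRNAs under that unadjusted threshold was not counted. The summed count of the pair gave log2-fold changes of 0.10 at 24 h (adjusted p = 0.653, edgeR) and 0.22 at 96 h (interval −0.08 to 0.52, adjusted p = 0.216, edgeR).

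The direction of these values depended on the scaling for miR-103a-3p, for the summed pair and for miR-107 at 24 h against 0 h. At 96 h against 0 h miR-107 was negative with TMM and with total counts, and at 0.0043 with the size factors of DESeq2. At 96 h against 24 h it was negative with each of these scalings. Over the 491 tested miRNAs the log2-fold change at 96 h against 0 h had a median of −0.10 with TMM, −0.83 when libraries were scaled by their total counts, and −0.46 when those totals left out miR-21-5p, the most abundant miRNA here. With total counts miR-103a-3p was at −0.47 (adjusted p = 0.0198, edgeR) and miR-107 at −0.80 (adjusted p = 0.0311, edgeR), both past the test and lower at 96 h. On that scale 192 of the 491 passed as lower with a log2-fold change beyond 1, and 23 as higher. Neither member fell by more than the median of −0.83. As a share of all reads the pair made up 0.358% and 0.468% in untreated cells, 0.375% and 0.346% after 24 h, and 0.270% and 0.308% after 96 h. The 96 h libraries lay below all others on this scale (exact permutation test, two-sided p = 0.333 against 0 h, the smallest that 2 against 2 libraries allow). How many of all tested miRNAs did so on this scale was not counted.
A change of scaling moves every miRNA by about the same amount, so the distance to that median hardly depends on it by construction. With TMM miR-103a-3p stood 0.36 and miR-107 0.04 above the median, and that of miR-107 went from −0.26 without 0 h replicate 1 to 0.33 without 96 h replicate 1. In the ranking of log2-fold changes at 96 h, 65.8% of tested miRNAs were below miR-103a-3p and 51.7% below miR-107.

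**Figure D2:**
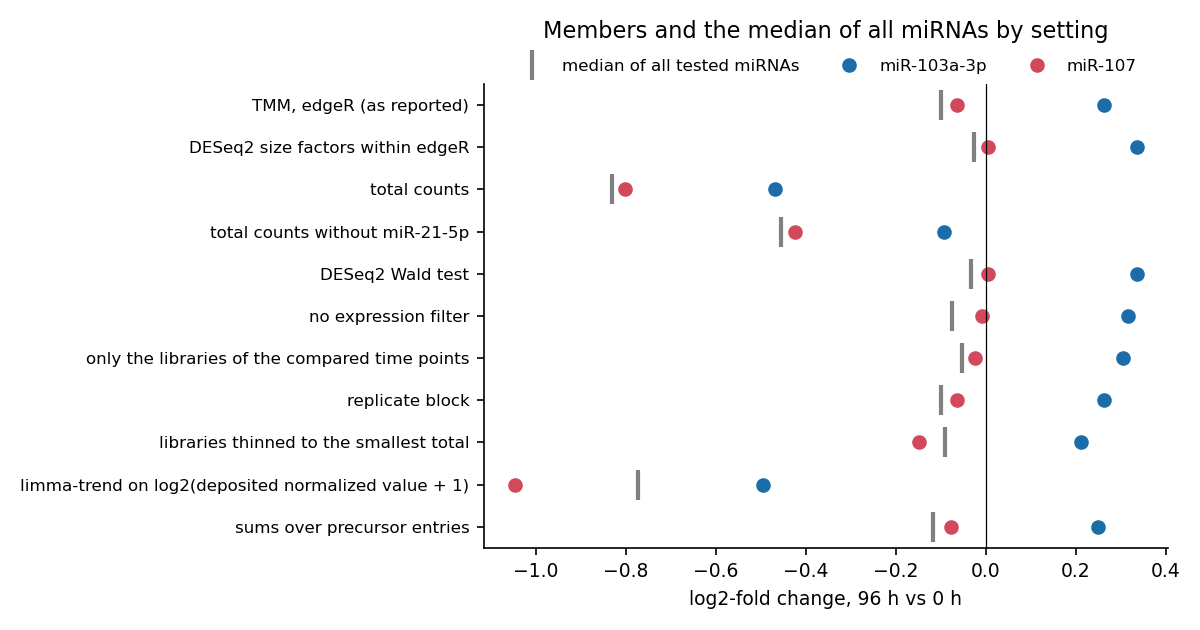
Log2-fold change at 96 h against 0 h of miR-103a-3p and miR-107 (points) and the median of all tested miRNAs (grey bars) under each scaling, filter or test named on the vertical axis. Both members shift to the left with the median, from −0.10 with TMM to −0.83 with total counts, and miR-103a-3p stays to the right of the median in every line.

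The balance within the pair does not depend on the scaling between libraries. miR-107 made up 13.7% of the pair's reads (95% Wilson interval 12.9% to 14.4%) and 17.4% (16.7% to 18.1%) in the 0 h libraries. At 24 h its share was 17.7% (16.9% to 18.5%) and 15.1% (14.4% to 15.7%), and at 96 h it was 10.9% (10.5% to 11.4%) and 14.7% (14.1% to 15.3%). At every time point the 2 libraries differed by more than their counting intervals, which cover counting error only. Means were 15.5% ± 2.61, 16.4% ± 1.84 and 12.8% ± 2.66 (SD, n = 2 each).
Both 96 h libraries lay below both 24 h libraries, a difference in means of −3.56 percentage points (exact permutation test, two-sided p = 0.333, the smallest possible). Against 0 h the difference was 0.855 points at 24 h (exact p = 0.667) and −2.70 points at 96 h (exact p = 0.667), with overlap in each case. Expressed as a ratio, miR-103a-3p had 6.32 and 4.76 reads for each read of miR-107 in untreated cells, 4.66 and 5.64 after 24 h, and 8.15 and 5.81 after 96 h.

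The spread in the share was between libraries more than between runs of one library. In the 5 libraries whose runs could be separated, the shallower and the deeper run gave 13.1% and 13.9% for 0 h replicate 1, 16.5% and 18.0% for 0 h replicate 2, 18.5% and 17.3% for 24 h replicate 1, 14.9% and 15.2% for 24 h replicate 2, and 11.0% and 10.9% for 96 h replicate 1. The intervals of the 2 runs overlapped in each of these libraries.

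**Figure D3:**
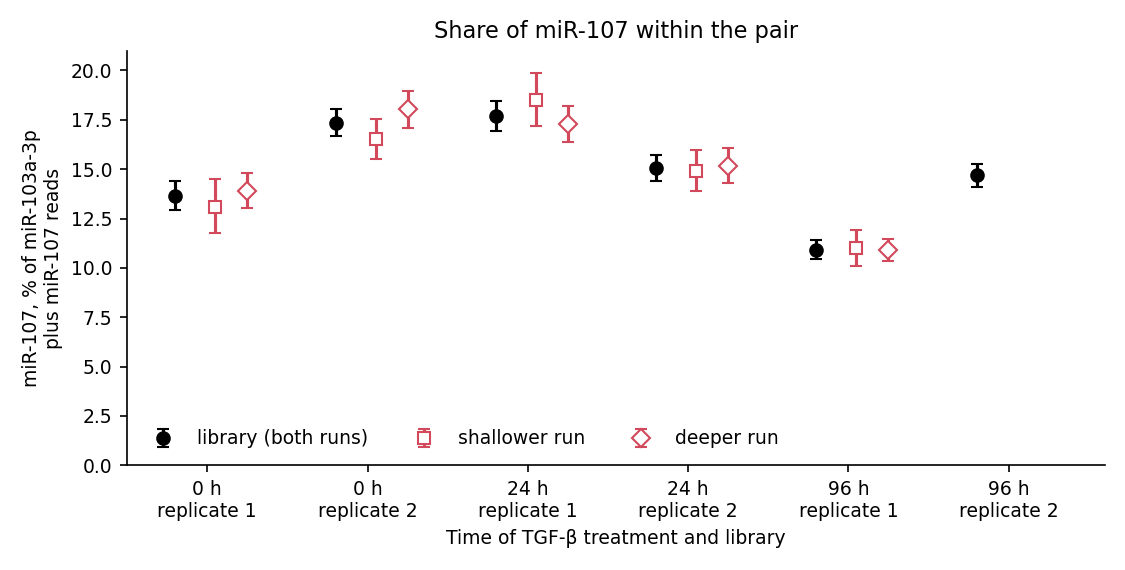
Share of miR-107 in the reads of miR-103a-3p plus miR-107, in percent, for each library (filled circles) and for its shallower and deeper sequencing run (open symbols), with 95% Wilson intervals. The runs of 96 h replicate 2 could not be separated. The 2 libraries of a time point differ by more than the 2 runs of a library, from 10.9% to 14.7% at 96 h.

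The same contrast appeared in the TMM-normalized levels. Between the 2 libraries of a time point miR-103a-3p differed by 0.10 (0 h), −0.02 (24 h) and 0.03 (96 h) on the log2 scale (replicate 2 minus replicate 1), and miR-107 by 0.51, −0.30 and 0.52. Over the 322 miRNAs whose mean reached 10 CPM, the median absolute difference was 0.265, 0.177 and 0.168. miR-107 was therefore more variable than the median miRNA at each time point and miR-103a-3p less variable. Of the 322, 76 (0 h), 91 (24 h) and 21 (96 h) differed more than miR-107, while 260, 295 and 292 differed more than miR-103a-3p. The 322 include miRNAs far less abundant than miR-103a-3p, and no comparison with miRNAs of similar level was made.

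**Figure D4:**
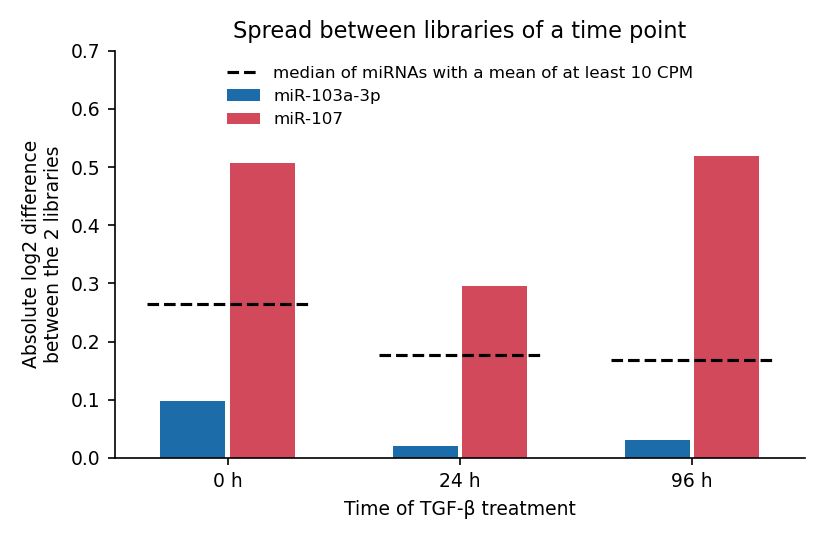
Absolute log2 difference in TMM-normalized level between the 2 libraries of each time point, for miR-103a-3p and miR-107 (bars) and the median of the 322 miRNAs whose mean reached 10 CPM (dashed lines). The bars of miR-107, up to 0.52, lie above the median at each time point and those of miR-103a-3p, up to 0.10, below it.

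The other strand was near the limit of detection. miR-103a-2-5p had 3 counts in each untreated library, then 5 and 4 after 24 h and again 5 and 4 after 96 h, 24 in all, and did not pass the filter on low counts, so it was not tested with the others. Its mean TMM-normalized level was 0.998 ± 0.144, 1.54 ± 0.451 and 1.11 ± 0.0351 CPM (SD, n = 2 each) at 0, 24 and 96 h. On that scale the 3 counts of the 0 h libraries were worth 1.10 and 0.896 CPM. Without TMM, on the total count, 3 counts are worth 0.502 to 1.28 CPM in these libraries. Without the filter its log2-fold change was 0.63 at 24 h (SE 0.94, interval −1.22 to 2.47, adjusted p = 0.823, edgeR) and 0.21 at 96 h (SE 0.94, interval −1.63 to 2.06, adjusted p = 0.995, edgeR). These intervals allow a change of several fold in one direction or the other.

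Reads came almost entirely from the guide strand in every library. Pooled over the libraries there were 0.396 reads of miR-103a-2-5p per 1000 reads of miR-103a-3p (95% Wilson interval 0.266 to 0.589), or 2525 reads of the guide strand for each read of the other. Since the guide strand also comes from MIR103A1, this ratio is not that of one precursor. By library the ratio was 0.415 and 0.316 (0 h), 0.635 and 0.424 (24 h), and 0.349 and 0.327 (96 h). The values of the 24 h libraries lay above all others (24 h minus 0 h 0.164, exact permutation p = 0.333, the smallest possible), and 96 h overlapped 0 h (exact p = 1). Such low counts cannot show a separation. The 0.424 of 24 h replicate 2 rests on 4 counts (95% Wilson interval 0.165 to 1.09). The 0.415 of 0 h replicate 1 rests on 3 (0.141 to 1.22). These counts also came unevenly from the runs: in 24 h replicate 1 all 5 reads were in the shallower run. miR-103b, which is antisense to miR-103a, was at 0 counts in each library, so that a level of up to 0.502 to 1.28 CPM could have been missed, and miR-107-5p is not listed.

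The relatives that share part of the seed did not move as one group. Of the 8 other listed members of the miR-15 and miR-107 group (miR-15a-5p, miR-15b-5p, miR-16-5p, miR-195-5p, miR-424-5p, miR-497-5p, miR-503-5p and miR-646), 7 were tested and miR-646 was at 0. At 96 h against 0 h, 2 of 7 had passed as higher and 0 as lower, where 22.8% of all tested miRNAs passed as higher and 21.2% as lower. miR-15b-5p had 125 and 144 CPM (0 h), 160 and 146 CPM (24 h), and 207 and 208 CPM (96 h), and rose by 0.63 on the log2 scale at 96 h (SE 0.16, adjusted p = 0.00963, edgeR). miR-424-5p, which targets cell cycle genes, had 83.2 and 102 CPM (0 h), 150 and 112 CPM (24 h), and 166 and 164 CPM (96 h), and rose by 0.83 (SE 0.19, adjusted p = 0.00647, edgeR). In both, the 96 h libraries lay above the others. Of all tested miRNAs, 71.7% had no overlap between 96 h and 0 h, and 61.9% between 96 h and 24 h. miR-16-5p, the most abundant of the 7, had 794 and 935 CPM (0 h), 1126 and 754 CPM (24 h), and 755 and 864 CPM (96 h), with overlap and a log2-fold change of −0.10 (SE 0.19, adjusted p = 0.712, edgeR). The median of the 7 was −0.10, equal to that of all tested miRNAs at 2 decimals. With total counts 0 of 7 passed as higher and 4 as lower, so the direction of this group depends on the scaling. On that scale the median of the 7 was −0.83, as was that of all tested miRNAs. Past the test with a log2-fold change beyond 1 were 192 of all 491 as lower and 23 as higher.

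let-7 miRNAs, which are also known to target DICER1, had 5 of 9 past the test as higher at 96 h and 0 as lower (all tested miRNAs, 22.8% and 21.2%), with a median log2-fold change of 0.50. let-7f-5p rose by 0.81 (adjusted p = 0.00329, edgeR), let-7g-5p by 0.73 (adjusted p = 0.00274, edgeR), and let-7a-5p by 0.60 (adjusted p = 0.00943, edgeR). With total counts 0 of 9 were higher and 4 lower, and the let-7 median was −0.21 where that of all tested miRNAs was −0.83. In the miR-200 family, which represses the EMT factors ZEB1 and ZEB2, 2 of 5 had passed as higher and 0 as lower, against the same 22.8% and 21.2%: miR-200b-3p rose by 1.60 (adjusted p = 0.000257, edgeR) and miR-200a-3p by 0.81 (adjusted p = 0.00947, edgeR). The rest of the family did not pass, with miR-429 at 0.20, miR-200c-3p at −0.03 and miR-141-3p at −1.14, and the family median was 0.20. At 24 h against 0 h these were at −0.34, −0.33 and −0.94, also without passing. miR-200b-3p had 45.1 and 43.0 CPM (0 h), 67.8 and 88.4 CPM (24 h), and 148 and 120 CPM (96 h), below the level of miR-107 in every library. With total counts 1 of 5 passed as higher and 2 as lower, with a family median of −0.53 beside the −0.83 of all tested miRNAs. At 24 h against 0 h, none of the 7 and none of the 9 passed in edgeR or in DESeq2. Under an unadjusted p of 0.05 in edgeR were 1 of the 7 and 4 of the 9. The share of all tested miRNAs under that unadjusted threshold was not counted. In the miR-200 family 1 of 5 passed, miR-200b-3p (0.83, adjusted p = 0.0375, edgeR), where 7.13% of all tested miRNAs did. That call was lost with total counts, with or without miR-21-5p, with the 0 and 24 h libraries alone, and in limma-trend. At 96 h against 24 h, miR-200b-3p was again the 1 of 5 that passed (0.77, adjusted p = 0.0275, edgeR), where 12.6% of all tested miRNAs did. In the other lists 0 of 7 and 0 of 9 passed in edgeR, with 2 and 2 under an unadjusted p of 0.05. DESeq2 put 0 of 7 and 1 of 9 past the adjusted threshold. The shares of all tested miRNAs for the unadjusted threshold and for DESeq2 were not counted. With total counts 0 of 5 in the miR-200 family passed, and 2 of 7 and 4 of 9 were lower. The median of all tested miRNAs was then −0.49, and 58 of 491 passed as lower with a log2-fold change beyond 1. miR-451a, which matures without Dicer, had 1 to 3 counts in each library, too few for a comparison.

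**Figure D5:**
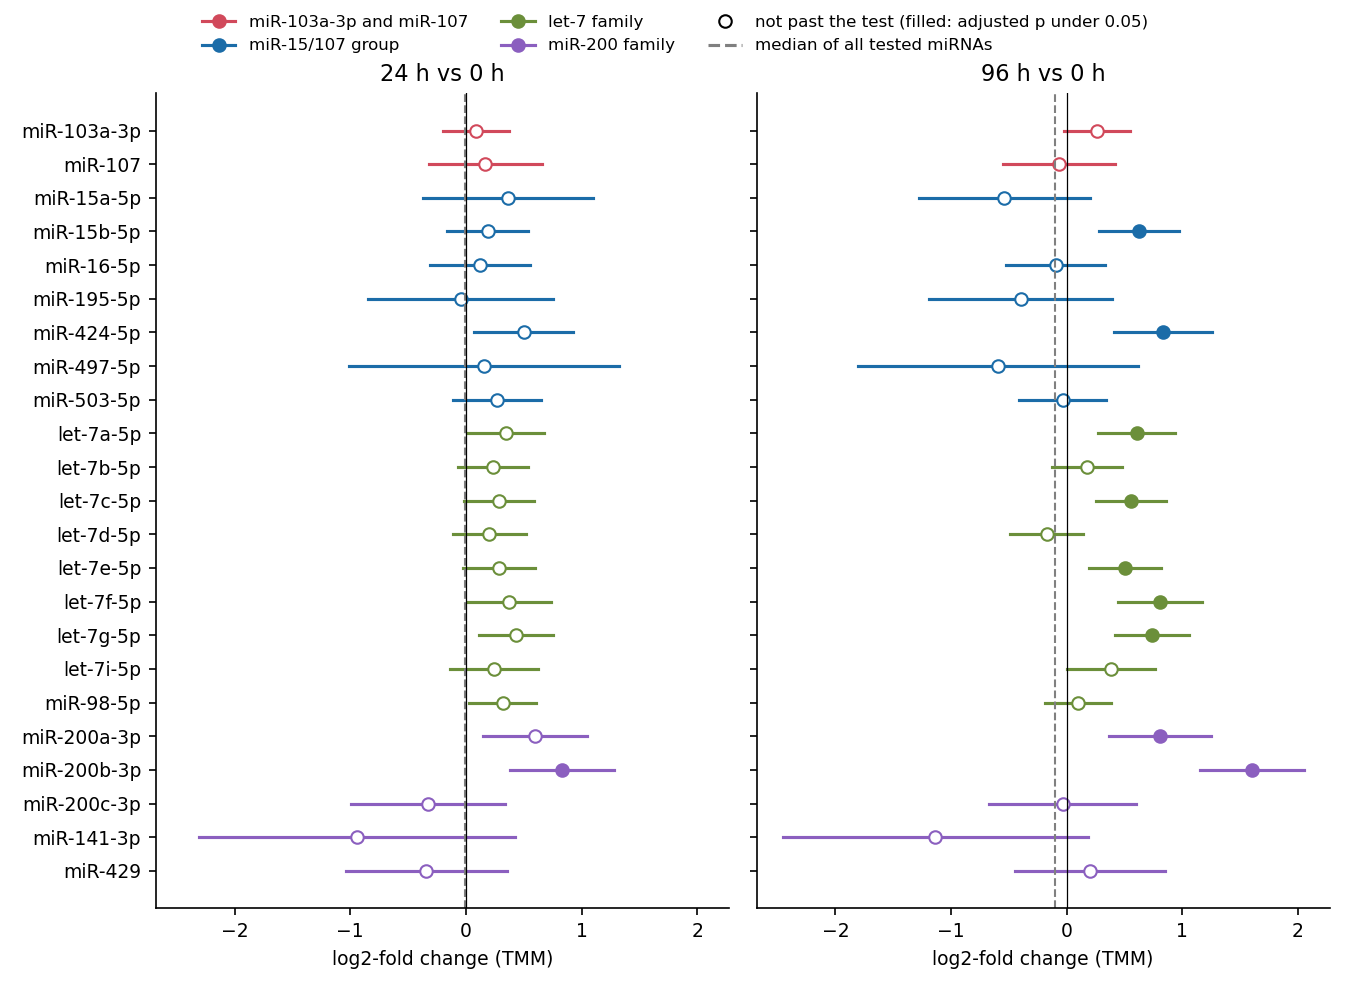
Log2-fold change with 95% interval at 24 h (left) and 96 h (right) against 0 h for miR-103a-3p and miR-107, the miR-15 and miR-107 group, and the let-7 and miR-200 families, TMM-normalized. Filled points passed an adjusted p of 0.05 and the dashed line is the median of all tested miRNAs. At 96 h the pair lies at 0.26 and −0.06, with 2 of 7, 5 of 9 and 2 of 5 relatives filled. These rises depend on the scaling, since with total counts 0 of 7, 0 of 9 and 1 of 5 were higher and the median of all tested miRNAs was −0.83.

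On the TMM scale, the courses of miR-103a-3p and miR-107 across the 6 libraries had little in common. Pearson's r of their log2 TMM-normalized levels was 0.04, given as a description over 6 libraries in 3 time points that share their scaling. Scaled by total counts, both miRNAs were lowest in the 96 h libraries. This r and the likenesses below therefore hold for TMM only, and r was not calculated on total counts. Among 321 other miRNAs at that minimum level, those most like miR-103a-3p were miR-15b-5p (r = 0.993), miR-382-5p (0.992), miR-134-5p (0.981), miR-183-5p (0.974) and miR-3195 (0.973). Their log2-fold changes at 96 h against 0 h, which the choice by likeness already used, ran from 0.63 to 5.46, so a high r does not mean an equal size of change. Those most like miR-107 were miR-29a-3p (r = 0.970), miR-660-5p (0.944), miR-137 (0.896), miR-15a-5p (0.894) and miR-22-3p (0.869). Their log2-fold changes at 96 h ran from −0.54 to 0.07. The relative miR-15b-5p was thus closest to miR-103a-3p and miR-15a-5p among the closest to miR-107.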

How the data were processed

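Small RNA of A549 cells was sequenced in 6 libraries (12 labelled runs). The authors counted reads per mature miRNA and precursor with miRDeep2 and deposited counts, whole numbers that sum both runs of a library and are not normalized. The normalized values they deposited are a signal, the sum of the CPM of the 2 runs. There, 1 column is a copy of another, name included, and was left out, so 96 h replicate 2 has no normalized value here; the runs of the other 5 libraries were separated from it by solving for whole reads (tolerance 0.1, entries of 1 to 1000 counts). The submitters' processing notes name FastQC and hg19; the miRNA reference set and mapper settings are not given in the sources used here.

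Of 2822 entries, the one with the highest total was kept for each of 2588 names; 2281 names matched a RefSeq mature miRNA. The tests used edgeR 4.0.16 (R 4.3.3): filterByExpr with a minimum count of 10, TMM, one quasi-likelihood fit to all 6 libraries with time as the only term, F-tests and Benjamini-Hochberg adjustment over all tested miRNAs. Past the test means an adjusted p below 0.05, and differentially expressed means a log2-fold change beyond 1 in size as well. SE is the absolute log2-fold change divided by the square root of F. Shares have 95% Wilson intervals and exact two-sided permutation tests over libraries (scipy 1.17.1). The procedure was tested on simulated data whose planted changes were much larger than those of the members. It therefore cannot show whether changes of the members' size would be found. Alternatives used DESeq2 1.42.0, limma 3.58.1 on log2(deposited normalized value + 1), other scalings and filters, a replicate block, thinned libraries, precursor sums and leaving out each library. An adjusted p that DESeq2 gave as missing was kept as missing.

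Named were the 3 members, their close kin, the miR-15 and miR-107 group, let-7, the miR-200 family, miR-451a, and the 5 miRNAs with the highest Pearson's r to each tested member. The members and lists were chosen with earlier results of these data known. Positions were taken from the GENCODE annotation lifted to GRCh37.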

Additional observations from a re-analysis of the deposited data

How the results depend on the processing

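With total counts the log2-fold changes of miR-103a-3p were −0.21 (24 h against 0 h), −0.47 (96 h against 0 h) and −0.26 (96 h against 24 h), those of the summed pair −0.20, −0.52 (adjusted p = 0.0184, edgeR) and −0.32, and those of miR-107 −0.14 and −0.80 against 0 h. With total counts without miR-21-5p the same values were −0.098 and −0.093 for miR-103a-3p (24 h and 96 h against 0 h), −0.086, −0.14 and −0.054 for the sum, and −0.022 for miR-107 at 24 h. In limma-trend on the deposited normalized values, where 96 h has 1 library, they were −0.20, −0.49 (adjusted p = 0.0588) and −0.29 for miR-103a-3p, −0.18, −0.57 (adjusted p = 0.0501) and −0.39 for the sum, and −0.077 (24 h) and −1.05 (96 h, adjusted p = 0.0432) against 0 h for miR-107. DESeq2's size factors within edgeR put miR-107 at 0.0043 at 96 h against 0 h (adjusted p = 0.987), and the Wald test of DESeq2 at 0.0046 (adjusted p = 0.987). At 96 h against 24 h miR-107 was at −0.66 (total counts), −0.40 (without miR-21-5p) and −0.97 (limma-trend), and at 96 h against 0 h it was at −0.42 without miR-21-5p. The scalings of the counts move all miRNAs nearly alike. In limma-trend, whose only 96 h library is replicate 1, miR-107 lay 0.27 below the median of all tested miRNAs at 96 h against 0 h. In edgeR without 96 h replicate 2 it lay 0.20 below the median. The cause was not tested. Differentially expressed miRNAs numbered 17 (24 h against 0 h), 127 (96 h against 0 h) and 29 (96 h against 24 h); total counts gave 33, 215 and 72, of which 15.2%, 10.7% and 19.4% were higher, against 35.3%, 48.8% and 62.1% with TMM. Total counts without miR-21-5p gave 26 at 24 h, and at 96 h against 24 h there were 46 without the filter, 44 from only the libraries compared, 18 in thinned libraries and 10 in limma-trend. At 96 h against 0 h 24.2% of calls were higher without miR-21-5p, 11.0% in limma-trend, 58.6% with DESeq2's size factors and 61.6% in its Wald test. The median at 96 h was −0.83 (total counts) and −0.93 (limma-trend) for the miR-15 and miR-107 group, −0.21 and −0.22 for let-7, with 0.15 without miR-21-5p, and −0.53 and −0.55 for the miR-200 family. Deposited normalized values in place of counts gave a difference of 0.373 reads of miR-103a-2-5p per 1000 of miR-103a-3p at 24 h. Its log2-fold changes come from the fit without the filter alone.

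Leaving out each library in turn put neither member nor their sum past the test; a lone library was then assumed to vary like the others. The ranges were 0.05 to 0.15, 0.26 to 0.32 and 0.17 to 0.25 for miR-103a-3p (24 h and 96 h against 0 h, 96 h against 24 h), and 0.06 to 0.19, 0.20 to 0.31 and 0.11 to 0.21 for the sum. For miR-107 they were −0.025 (without 0 h replicate 1) to 0.46 (without 0 h replicate 2), −0.31 (without 96 h replicate 2) to 0.22 (without 0 h replicate 2), and −0.43 (without 96 h replicate 2) to 0.068 (without 96 h replicate 1), so its direction rests on single libraries. Calls ranged from 4 (without 24 h replicate 2) to 36 (without 0 h replicate 1), from 93 to 142, and from 9 (without 24 h replicate 1) to 46 (without 0 h replicate 1). The share of miR-107 minus that at 0 h ranged from −0.993 to 2.70 points at 24 h and from −4.58 to −0.825 at 96 h, and the reads of miR-103a-2-5p per 1000 from 0.0583 to 0.270 at 24 h and from −0.0777 to 0.0216 at 96 h. List medians at 96 h ranged from −0.17 to 0.07 for the miR-15 and miR-107 group, 0.39 to 0.65 for let-7 and 0.07 to 0.39 for the miR-200 family.

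Deviations of replicate 1 from the mean of its time point correlated at −0.30 (0 h and 24 h), 0.31 (0 h and 96 h) and −0.18 (24 h and 96 h). With 2 libraries per time point these values cannot decide whether the replicate numbers pair the libraries. With the replicate block the log2-fold change at 96 h against 0 h was 0.26 for miR-103a-3p and −0.06 for miR-107, and 20, 124 and 41 miRNAs were differentially expressed.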
